A study of Oryctolagus cuniculus with 8 samples.

Results

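CSDC2 (cold shock domain containing C2, also called PIPPin) was followed in the forebrain of preterm rabbit pups given dexamethasone or saline. All probes assigned to CSDC2 by the array's gene name or description were taken, and this gave 1 gene with 1 probe (A_04_P061942) of the 43603 non-control probes of the array. The gene had been selected on its measured difference between dexamethasone and saline in these 8 samples, so that difference is given as a description with no test. Read on the scale of normalised log2 intensity, the CSDC2 probe was lower in every dexamethasone sample than in every saline sample, at 56.7% of the saline level, which is 1.77-fold lower. Without loess and Aquantile normalisation the log2 difference of -0.82 became -0.25, the groups overlapped and CSDC2 ranked 5590th from the lowest of 10675 genes. The difference was -0.42 with spike-in scaling, and -0.74 in the authors' deposited table, which has no loess either. The tested cold shock domain and replacement histone genes given here differed by 0.053 to 0.25 in log2 intensity and none passed the test.

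New Zealand rabbit pups were born preterm by surgical delivery on day 29 (term being day 32), reared on formula, and sampled at postnatal day 14. In the first group, 4 samples came from forebrains of pups given saline. In the second, 4 samples came from forebrains of pups given dexamethasone, a synthetic glucocorticoid, by intramuscular injection in doses of 0.25 mg/kg, 2 per day, over no more than 5 days. Both groups were thus preterm and formula-fed, and neither a term-born nor an uninjected group was analysed here. The design text calls the samples biological replicates without saying whether each was 1 pup. RNA was hybridised to 4 Agilent rabbit arrays that carried 2 samples each, the odd-numbered sample in the dye Cy3 and the even-numbered one in Cy5, and both samples of an array came from the same group.

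CSDC2 belongs to the cold shock domain proteins, which bind single-stranded nucleic acids through a fold shared with bacterial cold shock proteins. It is found mainly in brain, where it was described in neurons. It is known to bind histone messenger RNAs, among them those of the replacement histone that H3-3A and H3-3B encode, to be modified by SUMO, and to respond to thyroid hormone in the rat brain.

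The 2 slides of the study, and the 2 scan days, each held 1 group only, so for every value below the treatment cannot be told apart from slide or scan day. The share of spots well above background lay between 39.1% and 59.7% in saline, against 47.7% to 64.3% with dexamethasone, and within each dye both saline samples were the lower ones. Outlier spots numbered 932 to 3022 in saline and 197 to 509 with dexamethasone. The number of arrays, 2 in each group, limits the precision. The tissue label was checked against forebrain neuron markers. STMN2, RTN1, NEFL and MAP2, which encode neuronal cytoskeletal and membrane proteins, were well above background in all 8 samples, whereas no probe was named for SNAP25 or TBR1.

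The CSDC2 probe is a 60-base oligonucleotide that starts at base 343 of its rabbit transcript and holds 60% G and C. The array's annotation places no position for it on the build oryCun2 that the headers name. It is shown with probes of tested cold shock domain genes, because a shared stretch could let 1 transcript be read by several probes. Capitals mark the longest run of bases that the LIN28A probe had in common with it.
CSDC2: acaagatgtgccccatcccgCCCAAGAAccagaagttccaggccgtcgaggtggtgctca
YBX3: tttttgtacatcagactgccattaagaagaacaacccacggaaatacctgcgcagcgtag
LIN28A: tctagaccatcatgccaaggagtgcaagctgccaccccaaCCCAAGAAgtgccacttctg
The shared run with LIN28A was 8 bases, and with YBX3 6. Over the whole array, 0 of the other probes shared a run of 20 bases with the CSDC2 probe on either strand. On oryCun2 the array's annotation places the LIN28A probe at chr13:138938171-138938230, and gives no position for YBX3. The positions of LIN28A are listed from the higher to the lower.

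The CSDC2 spot was bright on every array. Its mean signal before any correction was 3006, 5285, 2091 and 4904 in saline 1 to 4, and 1762, 3707, 1936 and 3102 in dexamethasone 1 to 4, in scanner units. Cy5 signals were above Cy3 signals in both groups, so raw values are comparable only within a dye. Within Cy3 the mean of the dexamethasone samples was 0.725 of the saline mean, and within Cy5 it was 0.668. The raw Cy3 values lay close together in saline 3 and dexamethasone 3, with saline 3 the higher.

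The spot stood 63.4 to 165 times above its local background, passed the scanner software's test for well above background in all 8 samples, and was neither saturated nor an outlier in any. The spread of pixel brightness over the spot, as a coefficient of variation, was 11.5%, 8.12%, 36.8% and 23.7% in saline 1 to 4 and between 11.1% and 15.9% with dexamethasone. The spot was thus least even in saline 3, where 74.5% of 15862 comparable spots were more even. The part of this unevenness in the CSDC2 difference was not tested.

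After background correction, loess normalisation within arrays and Aquantile normalisation between arrays, the log2 intensity of CSDC2 was 12.14, 12.02, 11.97 and 11.99 in saline 1 to 4. It was 11.14, 11.20, 11.39 and 11.12 in dexamethasone 1 to 4. The groups did not overlap, and the lowest saline sample (saline 3) exceeded the highest dexamethasone sample (dexamethasone 3) by 0.58. The saline mean was 12.03 ± 0.077 (SD, n = 4) and the dexamethasone mean 11.21 ± 0.12 (SD, n = 4). The fitted difference in log2 intensity, dexamethasone minus saline, was -0.82 with a standard error of 0.10.

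**Figure D1:**
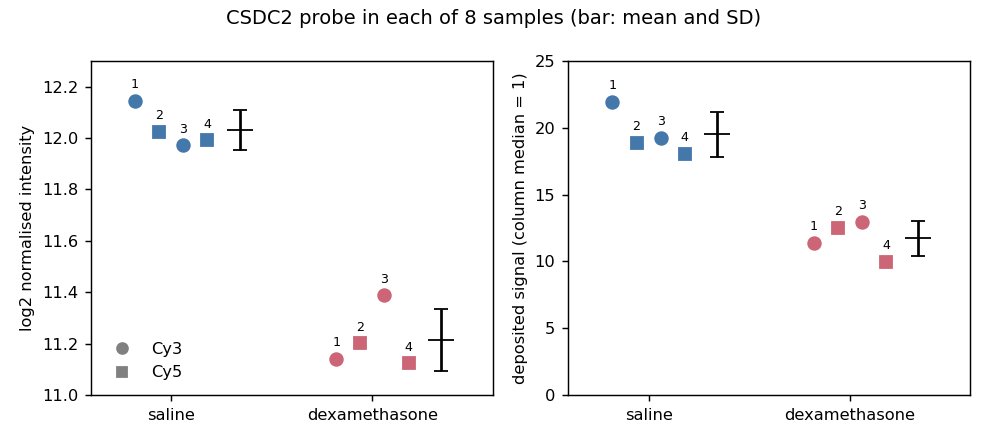
CSDC2 in each of the 8 samples, numbered by replicate and marked by dye, as log2 normalised intensity (left) and as the deposited signal, where 1 is the median of a sample's column (right); bars give the mean and SD of 4 samples. All 4 dexamethasone samples lie below all 4 saline samples on both scales.

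Each dye gave a like difference, but the dyes were read from the same spots of the same 4 arrays after loess. They are thus not independent of each other. Among Cy3 samples it was -0.79 in log2 intensity, and among Cy5 samples -0.85. The arrays averaged 12.08 and 11.98 in saline and 11.17 and 11.26 with dexamethasone. The samples that shared an array differed by at most 0.27, on the second dexamethasone array, beside the 0.58 that separated the groups. Loess draws the samples of an array together, so that closeness came in part from the processing and is no measure of spread. Without loess, saline 3 and saline 4, which shared array 2, stood at 11.24 and 11.84, and the groups overlapped. In bulk forebrain RNA, fewer cells that express CSDC2 and less CSDC2 RNA per cell cannot be told apart.

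The processed signal of the scanner software, which is already background-subtracted and dye-normalised, was 4397, 4081, 5290 and 4930 in saline 1 to 4. With dexamethasone it was 1951, 2103, 2244 and 1778. The groups were again apart, and the dexamethasone mean was 0.432 of the saline mean. These signals were not scaled between samples, so that ratio includes any difference in brightness between whole arrays. The other values given here for processed signals were scaled sample by sample, and on that scale the log2 difference of CSDC2 was -0.96. In the authors' deposited table, whose values are relative to the median of each sample, CSDC2 stood at 22.0, 18.9, 19.2 and 18.1 in saline and at 11.4, 12.5, 13.0 and 9.96 with dexamethasone. There the dexamethasone mean was 0.600 of the saline mean.

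The size of the difference depended on the normalisation. Without loess, with each sample only scaled to its 75th percentile, the log2 difference of CSDC2 was -0.25. The median of all genes was then -0.30, the saline samples had an SD of 0.55, and the groups overlapped, with saline 3 the lowest of the 8 samples. On that scale CSDC2 ranked 5590th from the lowest of 10675 genes, and it stood 0.052 above the median of all genes. This scaling, called without loess throughout, also left out Aquantile. The deposited table has no loess either, and there the groups were 0.48 apart and the difference was -0.74. Scaled to the spike-in control RNAs, which were lower with dexamethasone in 10 of 10 probes by a median of 0.39, the CSDC2 difference was -0.42 and the median of all genes 0.43. The groups were then 0.006 apart. Relative to the median of all genes CSDC2 stood at -0.84, as it did in the values used elsewhere here (-0.84). That likeness was fixed in advance, since spike-in scaling shifts all genes of a sample by the same amount.

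**Figure D2:**
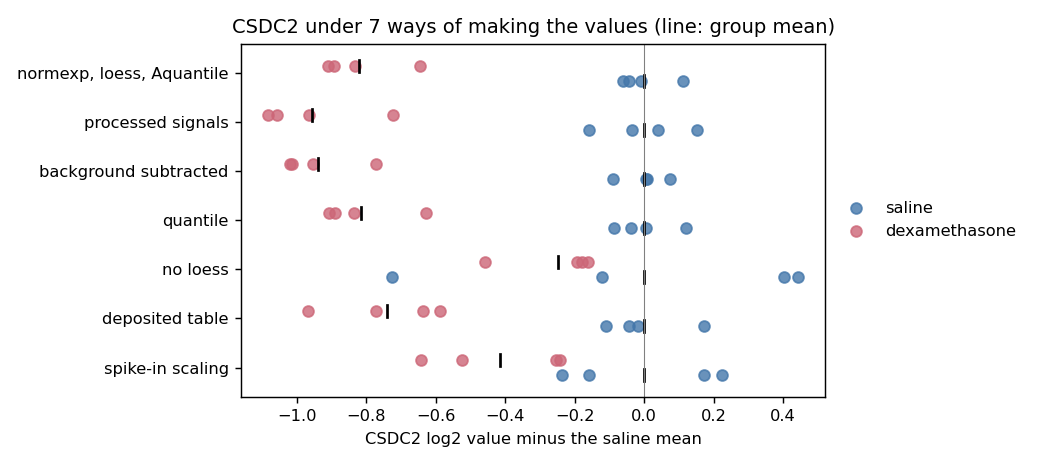
CSDC2 in each sample as log2 value minus the saline mean, under 7 ways of making the values; points are samples and black lines group means. The groups are apart in 6 of the ways, by only 0.006 with spike-in scaling, and overlap without loess.

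Across the array, 10783 genes or transcripts were tested with limma. At a Benjamini-Hochberg adjusted p under 0.05, 2 (0.0185%) were higher with dexamethasone and 5 (0.0464%) lower. At an unadjusted p under 0.05, 685 (6.35%) were higher and 819 (7.6%) lower. The groups did not overlap for 635 (5.89%) that were higher and for 818 (7.59%) that were lower, CSDC2 being 1 of the latter. The median log2 difference of all genes was 0.022.

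By its log2 difference, CSDC2 ranked 129th from the lowest of all 10783 and 60th of the 6101 with a gene symbol. Of the 3992 with a symbol that were well above background in all 8 samples, it ranked 24th. The rank over all genes moved with the processing, to 530th on processed signals, 309th in the deposited table, 227th with plain background subtraction, 287th of 22386 with no filter on dim probes, 243rd without array 1 and 82nd without saline 3. Just lower in the order of genes with a symbol stood CDX4 at -0.82 and PSMB10 at -0.83, and just higher stood WDR20 at -0.81 and VWA3A at -0.80. Among the 5 genes on either side, standard errors ran from 0.16 (TAF10 and POLR2J, whose groups did not overlap) to 0.57 (WDR20), against 0.10 for CSDC2 and a median of 0.13 over all genes tested. The samples of a group lay close together for CSDC2. In the values used elsewhere here, its SD in saline was larger than that of 19.5% of genes tested, and its SD with dexamethasone larger than that of 34.5%.

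**Figure D3:**
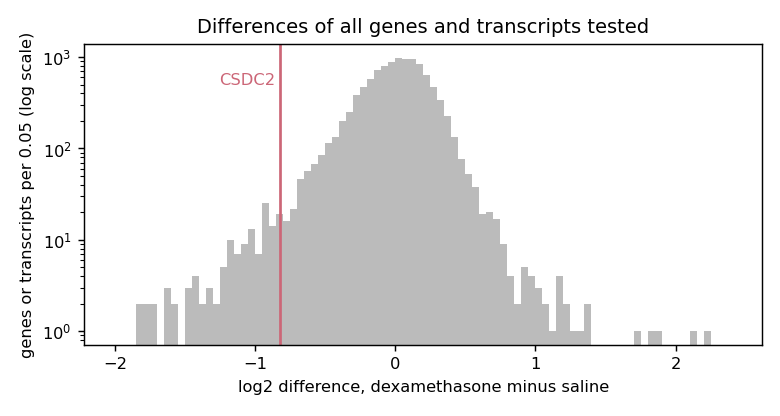
Log2 differences, dexamethasone minus saline, of the 10783 genes or transcripts tested, in bins of 0.05 with the number per bin on a log scale; the line marks CSDC2 at -0.82. CSDC2 lies in the lower tail, 129th from the lowest.

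Spots printed near the CSDC2 spot were read in the same way. Among 30 usable spots within 3 rows and columns, the median log2 difference was 0.030, with a range of -1.85 to 0.56. The lowest of them equalled the lowest difference of all genes tested (-1.85). Within 10 rows and columns the median was 0.11 over 149 spots. The CSDC2 spot lies in row 201 of 532 and column 82 of 85, near an edge of the array.

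The cold shock domain list, as reported here, held 6 genes beside CSDC2, of which 4 had a named probe and 2 were tested. Neither was called. Both log2 differences were positive and turned negative without loess, and their median was 0.073 against 0.022 for all genes.

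YBX3, a Y-box protein that binds DNA and RNA and is known as a translational repressor, differed by 0.053 (SE 0.19; limma, Benjamini-Hochberg adjusted p = 0.907). YBX3 turned to -0.66 without loess and its dexamethasone samples ran from 8.52 to 9.24 in log2 intensity, around saline samples at 8.76 to 8.92. LIN28A, which blocks maturation of let-7 microRNAs in early embryonic and stem cells, differed by 0.092 (SE 0.13; limma, Benjamini-Hochberg adjusted p = 0.742), and turned to -1.18 without loess. LIN28A was well above background in 2 of 4 samples of each group.

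YBX1, the Y-box protein of general messenger RNA packaging, was bright but not tested, because its 2 probes had 2 and 0 usable saline spots. With outlier spots included both YBX1 probes differed by 0.16, and over the usable spots of the first the difference was -0.15, so its direction was not settled. The germ cell member YBX2 was not well above background in any of the 8 samples. No probe was named for CARHSP1, the closest relative of CSDC2, for LIN28B, or for the cold-inducible RNA-binding proteins CIRBP, RBM3 and RBMX.

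Both replacement histone genes reported here were tested and neither was called. Their differences were positive, though H3-3B turned to -0.064 when probes were averaged and to -0.14 without the first dexamethasone array. H3-3A and H3-3B encode the same histone variant, which is laid down outside DNA replication. H3-3A differed by 0.098 (SE 0.13; limma, Benjamini-Hochberg adjusted p = 0.732) and H3-3B by 0.25 (SE 0.40; limma, Benjamini-Hochberg adjusted p = 0.783), each with 3 usable saline samples.

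**Figure D4:**
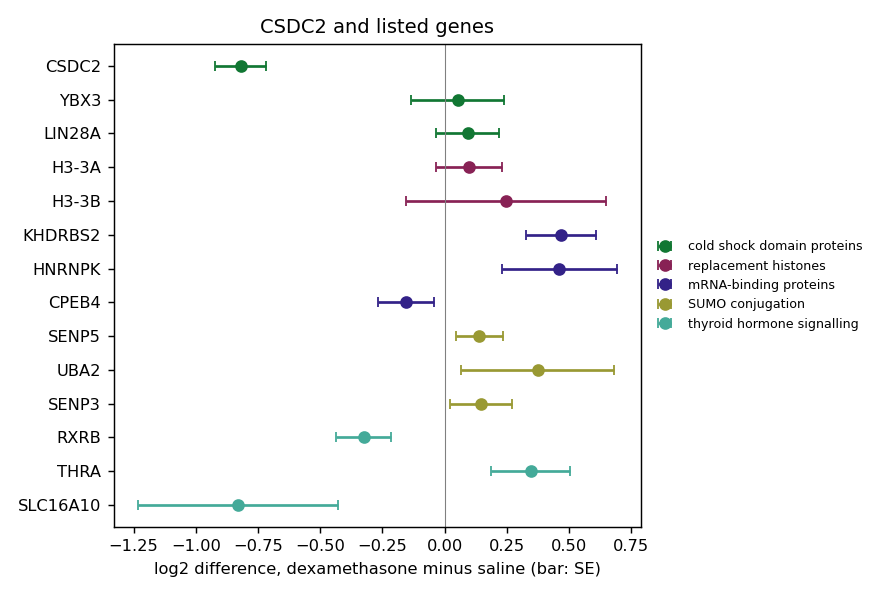
Log2 difference, dexamethasone minus saline, with its standard error, for CSDC2, the cold shock domain and replacement histone genes reported, and the 3 genes with the smallest p in each of the mRNA-binding, SUMO and thyroid hormone lists. CSDC2 stands at -0.82, YBX3 at 0.053 and LIN28A at 0.092.

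Of 55 other messenger RNA-binding proteins, 31 had a named probe and 23 were tested. None was called. In log2 difference 15 were positive and 8 negative, the median being 0.072. The groups did not overlap, with dexamethasone higher, in 1 of the 23, against 5.89% of all genes. This was KHDRBS2, a neuronal splicing regulator (0.47, SE 0.14; limma, Benjamini-Hochberg adjusted p = 0.303). HNRNPK, a nuclear RNA-binding protein, differed by 0.46 (SE 0.23; limma, Benjamini-Hochberg adjusted p = 0.389). CPEB4, which regulates polyadenylation and translation, differed by -0.16 (SE 0.11; limma, Benjamini-Hochberg adjusted p = 0.516), and turned to 0.042 on the processed signals.

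Of 17 genes of SUMO conjugation, the modification reported for the CSDC2 protein, 7 were tested and none was called. Differences were positive in 5 and negative in 2, and the median of 0.13 turned to -0.40 without loess. The smallest p-values belonged to the SUMO protease SENP5 (0.14, SE 0.0945; limma, Benjamini-Hochberg adjusted p = 0.493), UBA2, a subunit of the SUMO-activating enzyme (0.37, SE 0.31; adjusted p = 0.577), and the protease SENP3 (0.15, SE 0.12; adjusted p = 0.581). SENP5 turned to -1.14 and SENP3 to -0.034 without loess.

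Of 20 genes of thyroid hormone signalling, 9 were tested, none was called, 5 differences were positive and 4 negative, and the median was 0.016. RXRB, a retinoid X receptor that pairs with thyroid hormone receptors, differed by -0.33 (SE 0.11; limma, Benjamini-Hochberg adjusted p = 0.321), and turned to 0.11 without loess. THRA, the main thyroid hormone receptor of brain, differed by 0.35 (SE 0.16; limma, Benjamini-Hochberg adjusted p = 0.367). SLC16A10, a transporter of aromatic amino acids and thyroid hormones, differed by -0.83 (SE 0.40; limma, Benjamini-Hochberg adjusted p = 0.378), and was well above background in 2 of 4 samples of each group. Its log2 intensity was 8.33, 8.13, 9.95 and 9.51 in saline 1 to 4 and 7.94 to 8.37 with dexamethasone, so that only saline 3 and 4, which shared array 2, were high. The SLC16A10 difference was -0.082 without array 2, -1.58 without array 1, and -1.11 to -0.44 when 1 sample was left out.

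Likeness to CSDC2 was measured as Pearson's r over the 8 samples, with log2 values centred within each dye, among 5523 other genes with a symbol and a value in every sample. Samples shared arrays and slides, and r is given as a description of 8 points that fall into the study's 2 groups. In all, 98 genes had r above 0.9 and 79 had r below -0.9. The most alike was MRPL9, a protein of the large mitochondrial ribosomal subunit, with r = 0.997. Its log2 intensity was 11.75, 11.79, 11.71 and 11.79 in saline 1 to 4 and 11.50, 11.57, 11.54 and 11.56 in dexamethasone 1 to 4. MRPL9 ordered the Cy3 samples as CSDC2 did, and the Cy5 samples but for saline 2 and saline 4, over a smaller range, its difference being -0.22.

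Next came MICAL3 (r = 0.979, difference -0.28), a flavin monooxygenase that acts on actin, and CCDC54 (r = 0.979, difference -0.57). LETMD1 (r = 0.976, difference -0.53) and AHCTF1 (r = 0.975, difference -0.26), which takes part in nuclear pore assembly, also ranked high. PIGO (r = 0.974, difference -0.31), an enzyme of GPI anchor synthesis, and PMEL (r = 0.972, difference -0.22), a melanosome protein, were also among the 8 most alike, of which 7 are reported. Since r was taken against CSDC2, whose groups do not overlap, the separation of the groups in these 7 genes follows from how they were picked. Each of their differences was smaller in size than that of CSDC2. Without loess MRPL9 turned to 0.37.

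The most opposite gene was LCK, a kinase of T cells that is also found in brain, with r = -0.989. Its log2 intensity was 8.05, 8.23, 8.23 and 8.24 in saline 1 to 4 and 8.57, 8.59, 8.48 and 8.61 in dexamethasone 1 to 4, higher with dexamethasone in every sample. The LCK probe was dim, well above background in 1 of 4 saline samples and 4 of 4 dexamethasone samples. Its difference of 0.38 was 0.72 with plain background subtraction, 0.95 on processed signals, 0.68 in the deposited table and -0.81 without loess. PECR (r = -0.985, difference 0.30), a peroxisomal reductase, turned to -0.15 without loess. GTPBP8 (r = -0.974, difference 0.43) and TM9SF4 (r = -0.972, difference 0.36) completed the 4 most opposite.

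**Figure D5:**
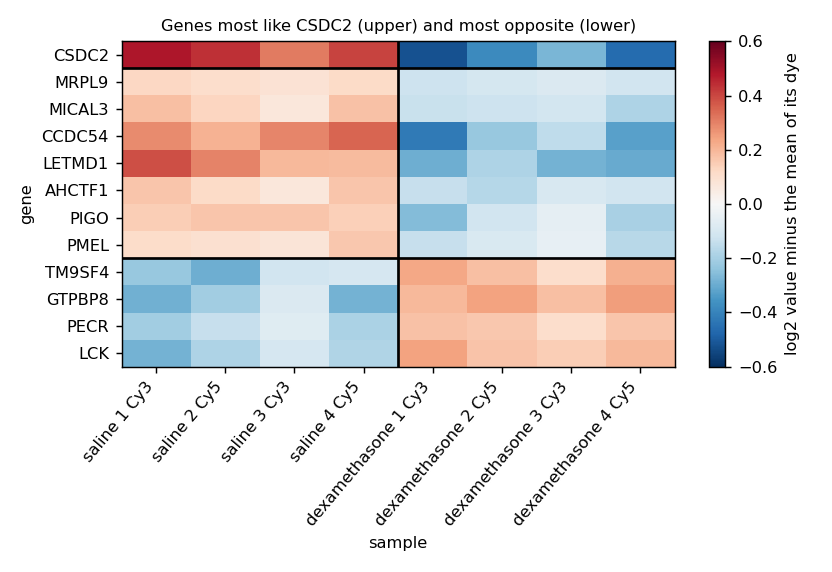
Log2 value minus the mean of its dye, by sample, for CSDC2 (top), 7 of the 8 genes most like it and the 4 most opposite; red is above and blue below the mean of the dye. The 7 genes are above their dye means in saline and below them with dexamethasone, over a smaller range than CSDC2, and the 4 are the reverse.

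Markers of the cells that a forebrain sample can hold were read beside CSDC2, and their part in its difference was not tested. No marker was called. Among 9 tested neuron markers the difference was positive in 5 and negative in 4, the median being 0.098, and their summed intensity was 154850 to 187070 in saline and 184220 to 211640 with dexamethasone. Sums cover only the markers with a value in all 8 samples, which were 7 of the 9 for neurons. A sum is led by its brightest members, STMN2 and RTN1 for neurons and GJB1 for oligodendrocytes. Of 9 astrocyte markers 7 stood above 0, with a median of 0.10. The sums of 6 of them, without the bright S100B, CLU and ALDOC, overlapped at 6627 to 7279 and 6641 to 8372. Of 4 tested oligodendrocyte markers 2 stood on each side of 0. Their summed intensity was 28274 to 39046 in saline and 19824 to 25290 with dexamethasone, so that it moved with CSDC2 without overlap, whereas the sums overlapped without loess, with spike-in scaling and in the deposited table. Among them GJB1, a gap junction protein, differed by -0.64 (SE 0.15; limma, Benjamini-Hochberg adjusted p = 0.247) and MAL, a myelin proteolipid, by 0.51 (SE 0.16; adjusted p = 0.311).

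Vascular markers had a median log2 difference of 0.012 over 7 genes, and the sums of 6 of them overlapped, at 5400 to 6265 and 5199 to 6390. The 2 microglia markers tested had sums of 1097 to 1471 in saline and 1056 to 1430 with dexamethasone. Sums also overlapped for 4 choroid plexus and ependyma markers, at 5263 to 7898 and 5056 to 8143. The 7 of 8 meningeal markers with all values summed to 14491 to 69867 in saline and 55110 to 149930 with dexamethasone. PTGDS, at a log2 intensity of 13.28 to 17.10, led this sum. Differences of the 8 ran from -0.60 to 1.19, with 5 positive and 3 negative. For 2 of 3 red blood cell markers the sums were 18348 to 98253 and 37746 to 90666.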

How the data were processed

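Agilent 2-colour arrays (45220 spots, 1417 of them controls) gave deposited spot intensity per dye. The submitters' processing notes name Agilent Feature Extraction 10.7.3.1, whereas the version in use was 11.0.1.1 per the file headers. A sample's values were those of the dye its labels give. The deposited table of the series gives a signal equal to the background-subtracted median divided by the column median, within 0.1% for 100% of listed values, so its scale and direction are known.

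Mean intensities were corrected with normexp (offset 50), normalised by loess and Aquantile, and taken as log2 per channel. Outlier spots were left out. Probes were kept where 4 or more of the 8 samples were well above background (23168), the brightest probe stood for a gene, and a gene needed 3 values in each group. Groups were compared with limma 3.58.1 in R 4.3.3, with dye as a term and array as a random block (consensus correlation 0.240), and Benjamini-Hochberg adjustment over 10783 genes. The fit was tested on simulated data, which held a shared effect of array but none of slide or scan day, so it says nothing about those. Symbols came from the array's annotation and a RefSeq table of mOryCun1.1 (22554 probes named and 21049 not, 21 of the latter matching several genes).

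CSDC2, the gene lists and the rules for named genes were chosen with earlier results of these data known. Some genes of the lists and some that the rule named are not reported here, and were left out of the counts for their lists. The rule named all tested cold shock domain and replacement histone genes, the 3 genes with the smallest p of each other list, the 8 genes most like CSDC2 and the 4 most opposite, and from marker lists the 2 with the smallest p, of which only some are printed. STMN2, RTN1, NEFL, MAP2, YBX1, YBX2 and the neighbours of CSDC2 in rank were named after their values were seen. Alternatives covered background correction, normalisation, filters, probe rule, model terms, the deposited table and each sample or array left out. Spike-in scaling, each dye alone and genes with all 8 values were added after the data were seen.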

Additional observations from a re-analysis of the deposited data

Results flagged for a closer look

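Of 46 groups of 4 samples examined over 25 genes, 2 held a sample far from the other 3 by Dixon's test at the 95% level. For independent samples chance alone gives about 1 in 20. The samples of a group here shared arrays and differed in dye, so that rate is only a rough guide. LETMD1, among the 8 genes most like CSDC2, stood at a log2 intensity of 8.42 in dexamethasone 4, against 8.53 to 8.54 in the other dexamethasone samples. LCK, the gene most opposite to CSDC2, stood at 8.05 in saline 1, against 8.23 to 8.24 in the other saline samples. No sample of CSDC2 stood apart in this way in either group.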

How the results depend on the processing

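The CSDC2 difference stayed negative under all 28 alternatives, and in 24 it moved by less than the spread between samples. Changes to filters, model terms, outlier rule and probe rule could not move it, and left it at -0.82. CSDC2 has 1 probe with a value in every sample, and the dyes were balanced between the groups. Those alternatives are thus no measure of its stability. The CSDC2 difference was -0.96 on processed signals scaled sample by sample and -0.94 with plain background subtraction. It was -0.25 without loess and -0.42 with spike-in scaling, and the cause was not tested. Leaving out 1 sample gave -0.88 to -0.77 and leaving out 1 array -0.87 to -0.77. The deposited table gave -0.74, where the median of all genes was 0.13. With the replicate number as a block CSDC2 stayed at -0.82 and 5 genes were called. Deviations with the dye removed correlated at -0.064 and 0.0049 between same-numbered samples. With so few samples per dye in each group, these values cannot tell whether the numbers pair the samples.

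The count of genes called was 7, and became 15 on processed signals, 2222 without loess (48 higher and 2174 lower), 2 with no filter on dim probes, 29 without the array block, 18 without the dye term and 5723 with spike-in scaling, of which 5681 were higher and 42 lower, so the direction of most calls turned with the scaling. It was 2183 without array 1, 207 without array 2, 0 without array 3 and 1 without array 4. Leaving out 1 sample gave 0 to 14 by limma: 14 without saline 2, and 0 without dexamethasone 1, 2, 3 or 4, where 643, 1180, 936 and 1075 genes had an unadjusted p under 0.05 (552 without array 3). Where 1 array is left out, the arm with 1 array is assumed to vary like the other.

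Other named genes turned sign as follows. Processed signals gave YBX3 -0.044 and CPEB4 0.042, and the deposited table gave CPEB4 0.015. Without loess YBX3 was -0.66, LIN28A -1.18, SENP5 -1.14, SENP3 -0.034, RXRB 0.11, MRPL9 0.37, PECR -0.15 and LCK -0.81. The mean of probes gave H3-3B -0.064. YBX3 ranged from -0.092 to 0.22 when 1 sample was left out, and was -0.062 without array 4. UBA2 was -0.068 without array 2, and H3-3B -0.14 and SENP3 -0.00031 without array 3. Spike-in scaling, which moved the median of all genes from 0.022 to 0.43, gave CPEB4 0.25, RXRB 0.079, MRPL9 0.19, MICAL3 0.13, AHCTF1 0.14, PIGO 0.093 and PMEL 0.18. Dim probes such as those of LIN28A and YBX2 are limited by signal over background, whereas CSDC2 is not.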
